A study of Mus musculus with 3 samples.

Results

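The non-Hox positional transcription factors described here are 9 genes: Zic1, Tbx1, Six2, Tshz2, Tbx15, Tbx18, Pitx1, Meox1 and Meox2. They were chosen by name, with earlier results of these same arrays known, and every probe whose RefSeq accession maps to one of them was taken, which gave 12 probes for the 9 genes out of 27508 named probes for 20886 genes. Because the members were picked from the ratios between these arrays, the counts and ratios below describe them and test nothing. The cells were mouse tail-tip fibroblasts on day 8 after Oct4, Sox2, Klf4 and c-Myc had been introduced, an intermediate stage of reprogramming toward pluripotency. The groups, with 1 array of total RNA each, were p16-/- donors aged 22 months (old p16-/-), WT donors aged 22 months (old WT) and WT donors aged 2 months (young WT). All 3 groups carry the same 4 factors, p16 being the cyclin-dependent kinase inhibitor encoded by Cdkn2a. The labels mention 2 experiments with different donors. They do not give the strain or sex of the donors, the number of mice behind an array, the vector of the factors or the extent of the p16 deletion.

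Positional transcription factors are set in the embryo according to where a cell lies along the body axes, and fibroblasts of adult skin keep much of that pattern in culture, so that cells from different sites can be told by their Hox, T-box and homeobox genes. The members belong to 3 structural families. Tbx1, Tbx15 and Tbx18 bind DNA through a T-box, and Six2, Pitx1, Meox1 and Meox2 through a homeodomain. Zic1 and Tshz2 carry zinc fingers. Reprogramming to pluripotency silences the genes that mark the starting fibroblast.

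With 1 array per group there was no replicate spread, and no difference below has a replicate check. The error printed with a signal is that of the scanner software's error model within 1 array, and it does not cover differences between animals or cultures. Between 57.4% and 61.6% of 43020 spots were well above background on an array. All 15 fibroblast markers were above background on all 3 arrays, although Thy1 had a signal of 3287 on old p16-/-, against 52045 on old WT and 69467 on young WT. The brightest Cdkn2a probe read 28065 on old p16-/-, 65464 on old WT and 62705 on young WT. The place of that probe relative to the deletion is given in none of the sources used here, so it does not check the genotype. Pou5f1 (Oct4) did not read well above background on any of the 3, and the place of its probe relative to the introduced coding sequence is likewise unknown. The Y-linked gene Eif2s3y was not well above background on old p16-/- and old WT and read 6819 on young WT. Xist read 1387 on old p16-/- and 1548 on old WT, and 13.8 on young WT, where it was not well above background. Both old arrays thus differ from young WT in sex-linked expression, and age and donor sex cannot be told apart in any comparison with young WT. This holds for autosomal genes too, and all members lie on autosomes.

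Promoter windows from RefSeq (build GRCm38.p6) were matched by symbol for 6 of the 9 members, with 7 windows in all because Tbx1 has a pair of starts, and no entry for Tbx15, Pitx1 or Meox1. The windows shown are those of the members whose signals lay furthest apart between arrays with a bright probe, Zic1, Tbx1, Tshz2 and Meox2, each as the 250 bases before the annotated start, 5′ to 3′ on the gene's strand. Capitals mark exact matches, on either strand, to the words searched. These were TATAAA for the TATA box, GGGCGG for the GC box and CCAAT for the CCAAT box. TAATTA stood for the homeodomain core and AGGTGT for the T-box half-site. No match overlapped another in the 4 sequences. The first is Zic1 at chr9:91365769-91366018 (minus strand), then Tbx1 at chr16:18588900-18589149 (minus), Tshz2 at chr2:169632259-169632508 (plus) and Meox2 at chr12:37108290-37108539 (plus).
Zic1: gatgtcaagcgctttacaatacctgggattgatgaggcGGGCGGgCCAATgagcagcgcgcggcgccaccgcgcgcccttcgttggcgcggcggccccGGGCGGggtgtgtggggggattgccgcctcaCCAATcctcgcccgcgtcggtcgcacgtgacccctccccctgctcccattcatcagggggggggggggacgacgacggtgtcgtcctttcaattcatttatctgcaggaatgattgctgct
Tbx1: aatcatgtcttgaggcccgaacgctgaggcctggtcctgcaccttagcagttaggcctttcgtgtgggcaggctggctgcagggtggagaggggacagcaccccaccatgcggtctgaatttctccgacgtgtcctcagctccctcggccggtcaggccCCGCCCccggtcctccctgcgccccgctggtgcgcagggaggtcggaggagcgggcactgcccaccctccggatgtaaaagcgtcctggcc
Tshz2: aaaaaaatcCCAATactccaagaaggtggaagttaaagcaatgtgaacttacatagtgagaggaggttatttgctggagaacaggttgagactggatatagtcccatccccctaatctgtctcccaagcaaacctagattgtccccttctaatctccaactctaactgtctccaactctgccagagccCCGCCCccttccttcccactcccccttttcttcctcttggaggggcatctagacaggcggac
Meox2: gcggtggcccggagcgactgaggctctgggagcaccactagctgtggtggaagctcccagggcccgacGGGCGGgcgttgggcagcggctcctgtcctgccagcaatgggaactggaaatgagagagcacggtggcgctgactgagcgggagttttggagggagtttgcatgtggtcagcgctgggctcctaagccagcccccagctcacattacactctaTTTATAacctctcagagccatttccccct

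The 4 windows differ in base composition. Zic1 has 27 CpG dinucleotides and 66% G and C, Tbx1 17 and 67.2%, Meox2 12 and 62%, and Tshz2 2 and 48.8%. Over 32851 promoters of the same length, the median was 6 CpG dinucleotides and 52.4% G and C. Meox2 holds TTTATA, the reverse complement of TATAAA, from -29 to -24, and 12.4% of all promoters have that word on some strand. GGGCGG or its reverse complement stands in all 4 windows and in 32.7% of promoters. CCAAT stands in Zic1 and Tshz2 and in 33.8% of promoters. AGGTGT is in none of the 4 and in 11.8% of promoters, and it does stand in the other Tbx1 window, from -76 to -71. TAATTA is in none of the 7 windows and in 4.84% of promoters.

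Of the 9 members, 7 were well above background on at least 1 array, and these were above background on all 3 arrays by their brightest probe. Pitx1 and Meox1 were not above background on any array. In old p16-/- over old WT, 1 of the 7 was at least 2-fold higher (Tbx1) and 3 were at least 2-fold lower (Zic1, Tshz2 and Meox2), where 5.91% of 14701 genes were higher, 6.61% lower and 12.5% either. For old WT over young WT, 1 was higher (Tbx1) and 3 were lower (Six2, Tshz2 and Meox2), beside 2.94% higher, 3.17% lower and 6.12% either of 14554 genes. Set against young WT, old p16-/- had 1 member higher (Tbx1) and 4 lower (Zic1, Six2, Tshz2 and Meox2), beside 6.34%, 6.97% and 13.3% of 14288 genes. At a brighter-array signal of 1000 or more, the members counted were 5, 6 and 6 in the same order of comparisons. Among these, 1 was higher and 2 lower in old p16-/- over old WT, beside 2.67%, 4.21% and 6.88% of 8836 genes higher, lower and either. In old WT over young WT 1 was higher and 2 lower, beside 1.17%, 0.562% and 1.73% of 8719 genes. Set against young WT, old p16-/- had 1 higher and 3 lower, beside 3.42%, 4.19% and 7.61% of 8871 genes. Nothing is read from these shares, since the same ratios led to the choice of members. The median log2 ratio of the 7 members was 0.05, -0.08 and -2.34 in the same comparisons, and that of all genes was at most 0.03 in size. Each pair of these comparisons shares 1 array, so their values are not independent. In RNA from a whole culture, fewer cells that express a gene and less RNA per cell cannot be told apart.

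**Figure D1:**
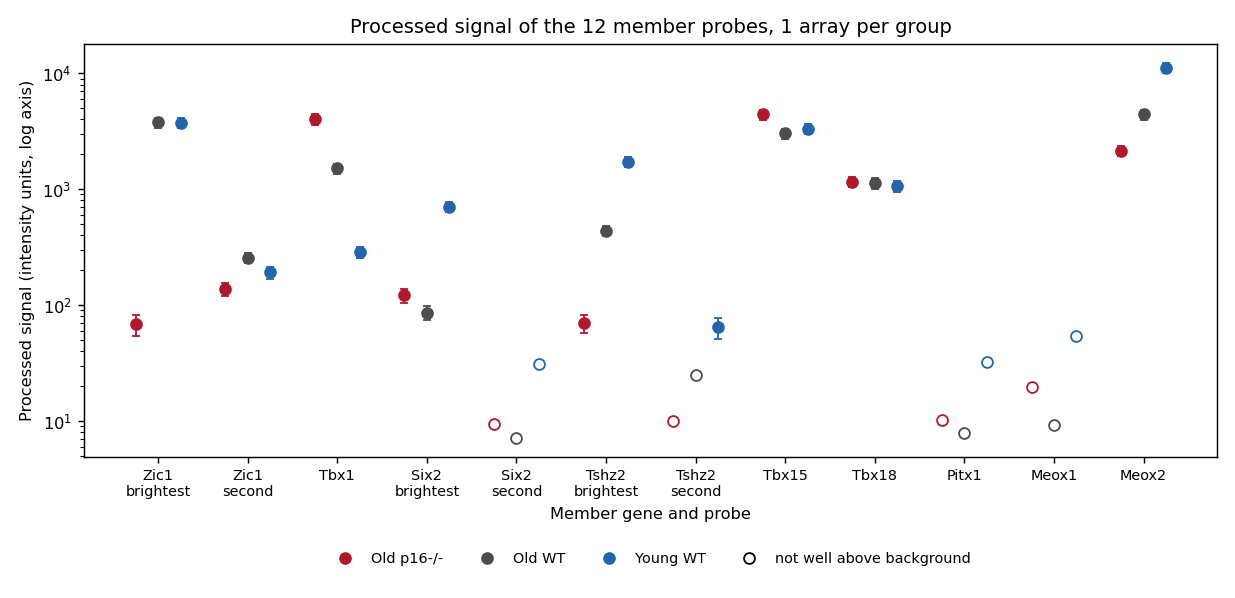
Processed signal (log axis) of the 12 member probes on the old p16-/- (red), old WT (grey) and young WT (blue) arrays. Bars are the software's error within an array and are drawn for filled points. Open points were not well above background. Tbx1 stands at 4015 on old p16-/- and 286 on young WT, Meox2 and Tshz2 run the other way, and the brightest Zic1 probe stands at 68.0 on old p16-/-.

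Among the T-box genes, Tbx1 differed at least 2-fold between all 3 arrays, and Tbx15 and Tbx18 stayed within 2-fold. Tbx1 is required for the pharyngeal arches and the outflow tract of the heart, and its human counterpart lies in the region deleted in DiGeorge syndrome. Its single probe read 4015 ± 402 on old p16-/-, 1511 ± 151 on old WT and 286 ± 30.8 on young WT (signal ± software error). The 3 values stand well apart in that order. The log2 ratio was 1.41 ± 0.20 for old p16-/- over old WT (2.65-fold) and 2.46 ± 0.21 for old WT over young WT (5.51-fold). For old p16-/- over young WT it was 3.87 ± 0.21 (14.6-fold), which placed Tbx1 at rank 33 from the highest of 14288 genes.

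Tbx15, which sets the boundary between dorsal and ventral coat colour in mouse skin, read 4425 ± 443 on old p16-/-, 3025 ± 303 on old WT and 3325 ± 333 on young WT. Its log2 ratio was 0.54 ± 0.20 for old p16-/- over old WT and -0.08 ± 0.20 for old WT over young WT, so that the WT arrays lay within the error of 1 array. Tbx18, a factor of somites, ureter mesenchyme and dermal papilla, was the most even member above background. It read 1164 ± 117 on old p16-/-, 1124 ± 113 on old WT and 1059 ± 107 on young WT, and the 3 values overlap within their errors. Its log2 ratios lay between 0.05 and 0.19, each with an error of 0.21 or less.

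Among the homeodomain genes, Meox2 and Six2 were lower on both old arrays than on young WT. Meox2, a factor of the somites and limb muscle also known as the growth arrest-specific homeobox gene, was read by a single probe. It gave 2139 ± 214 on old p16-/-, 4425 ± 443 on old WT and 11226 ± 1123 on young WT. The order is the reverse of that of Tbx1, and no pair of values overlaps within its errors. The log2 ratio was -1.05 ± 0.20 for old p16-/- over old WT, close to the 2-fold line, and -1.28 ± 0.20 for old WT over young WT. For old p16-/- over young WT it was -2.34 ± 0.20 (5.05-fold lower). The gene rests on that 1 probe and 1 spot per array.

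Six2 keeps nephron progenitors of the kidney undifferentiated and is expressed in several mesenchymes of the embryo. Its brighter probe read 121 ± 16.2 on old p16-/-, 85.4 ± 11.8 on old WT and 702 ± 71.4 on young WT. The old arrays are both low and lie near each other, with a log2 ratio of 0.50 ± 0.28, and young WT stands alone. Set against young WT, the log2 ratio was -2.48 ± 0.24 for old p16-/- and -2.98 ± 0.25 for old WT, the last being -2.22 after normexp background correction. The second probe read 9.42, 7.13 and 31.0 on the same 3 arrays and was not well above background on any. Single spots bear on this value because all member probes are spotted once. Among 1390 spots of 139 dim probes spotted 10 times on the young WT array, 66 (4.75%) were called well above background and 0 reached the Six2 signal of 702, the highest standing at 694. On old p16-/- and old WT, 1 of 1400 and 1 of 1290 such spots did.

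Pitx1, which gives hindlimb identity, read 10.2 on old p16-/-, 7.78 on old WT and 32.4 on young WT. Meox1, the partner of Meox2 in the somites, read 19.4, 9.17 and 54.2 on the same arrays. Neither was well above background on any array, where the lowest signal of a probe called above background was 46.9 on old p16-/-, 35.7 on old WT and 55.4 on young WT. No ratio is given for them.

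The zinc finger genes gave the lowest ratios among the members in both comparisons with old p16-/-. Zic1, a factor of the dorsal neural tube and dorsal somites, was read by a pair of probes that disagree. The brightest read 68.0 ± 13.5 on old p16-/-, 3777 ± 378 on old WT and 3754 ± 376 on young WT. The WT arrays were level and old p16-/- was 55.7-fold below old WT, a log2 ratio of -5.80 ± 0.32, rank 3 from the lowest of 14701 genes (-4.57 after normexp background correction). The second probe read 137 ± 17.3 on old p16-/-, 256 ± 26.9 on old WT and 192 ± 22.9 on young WT, all well above background. It gave -0.91 ± 0.24 for old p16-/- over old WT and 0.48 ± 0.23 for old WT over young WT. Both probes put old p16-/- lowest, and they differ in size by 4.89 log2 units.

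The gap is set beside those of other genes as description only, since the disagreement of the Zic1 probes was known beforehand. Of 3255 genes with at least 2 probes above background on all 3 arrays, 168 (5.16%) had a gap of at least 1 log2 unit between their 2 brightest probes in old p16-/- over old WT, and the median gap was 0.12. A gap of at least 4.89 was found for 2 genes, Zic1 among them. In old p16-/- over young WT its gap of 5.30 was matched by no other gene, and in old WT over young WT its gap of 0.41 was reached by 215 genes. Gaps as large as those with old p16-/- need a large ratio by at least 1 probe, and these counts were not limited to genes with one. Where in the transcript each probe lies is unknown here, and which probe follows the gene was not tested. The size of the Zic1 difference therefore depends on the probe read.

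**Figure D2:**
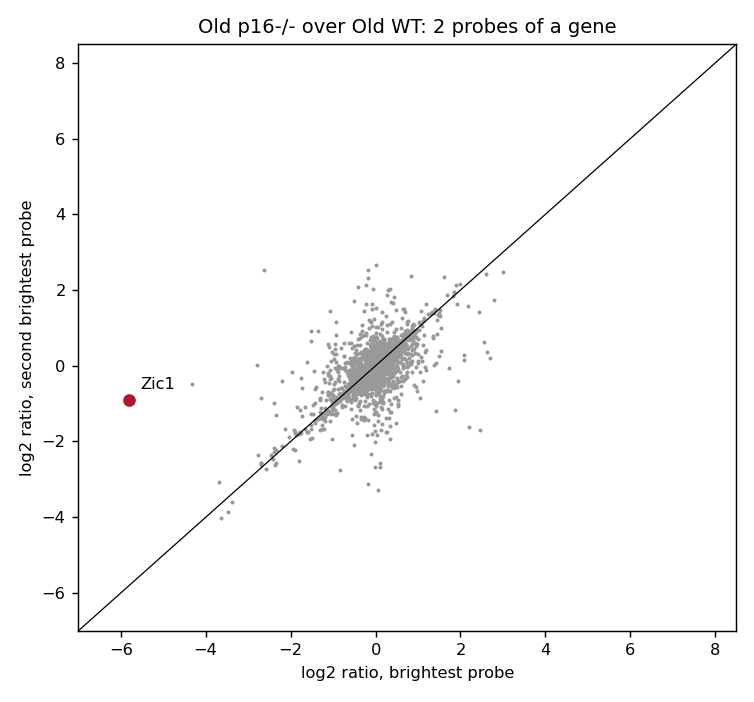
Log2 ratio of old p16-/- over old WT by the brightest (horizontal) and second brightest probe (vertical) of 3255 genes with both probes above background on all 3 arrays. The line marks equal ratios. Zic1 (red) lies at -5.80 and -0.91, far from the line.

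Tshz2, a vertebrate relative of the Drosophila trunk gene teashirt, was lower on each old array by its brightest probe. It read 69.6 ± 12.8 on old p16-/-, 440 ± 44.7 on old WT and 1726 ± 173 on young WT, with no overlap. The log2 ratio was -2.66 ± 0.30 for old p16-/- over old WT (-1.82 after normexp) and -1.91 ± 0.21 for old WT over young WT. Between old p16-/- and young WT it was -4.58 ± 0.30 (23.9-fold lower, and -3.52 after normexp), rank 20 from the lowest of 14288 genes. The second probe was above background on young WT alone, at 64.0, with 9.95 on old p16-/- and 24.8 on old WT. Its ratios are bounds, -0.39 for old p16-/- over young WT and -0.78 for old WT over young WT. Since neither old array was above background by that probe, no order between them was measured.

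The low values lie where the arrays are less precise. Across the 10 spots of a replicated probe, log2 signals at 50 to 200 had a median SD of 0.14 on old p16-/-, 0.12 on old WT and 0.14 on young WT. Above 1000 it was 0.05 on each array. In the low range, 2.42%, 1.79% and 1.14% of spots lay at least 2-fold from the median of their probe, and above 1000 none of 1720, 1700 and 1750 did. The Zic1 and Tshz2 values on old p16-/- and the Six2 values on both old arrays fall in the low range.

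**Figure D3:**
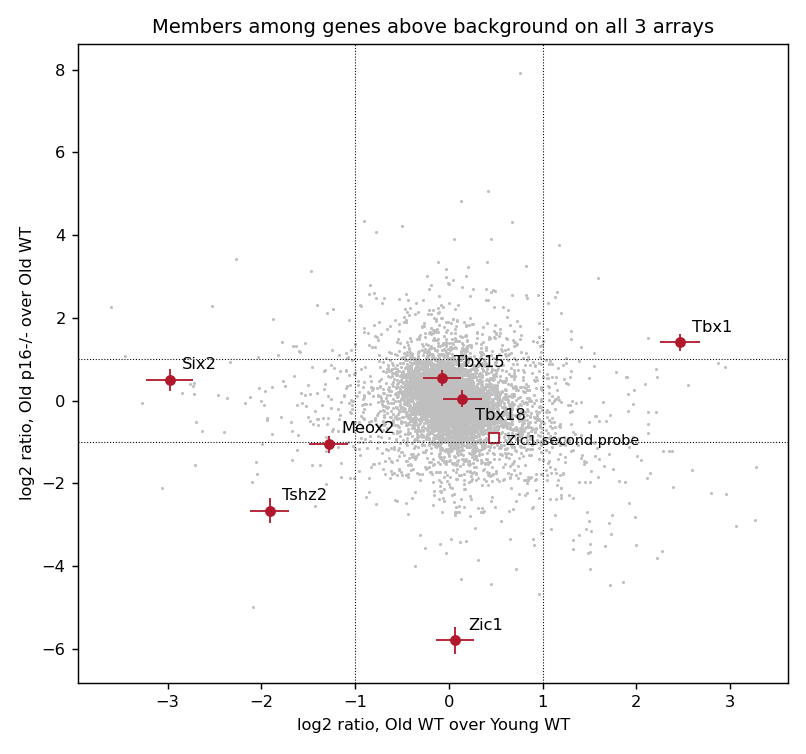
Log2 ratio of old WT over young WT (horizontal) against old p16-/- over old WT (vertical) for genes above background on all 3 arrays (grey), with the 7 measured members (red, bars are the software's error) and the second Zic1 probe (open square). Dotted lines mark 2-fold. The axes share the old WT array, so a high value there moves a gene toward the lower right and a low value toward the upper left. Tbx1 lies at the upper right and Tshz2 and Meox2 at the lower left.

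The relatives of the members were read from a list of 27 paralogues, of which 17, 16 and 17 were counted in old WT over young WT, old p16-/- over old WT and old p16-/- over young WT. Here and for the lists, neighbours and markers below, the shares of all genes given with the member counts are the background. The counts are description only. There were 2 of 16 at least 2-fold lower and 0 higher in old p16-/- over old WT, with a median of -0.18 beside 0.02 over all genes. Old WT over young WT had 1 higher and 2 lower, with a median of 0.05. Against young WT, old p16-/- had 0 higher and 5 lower, with a median of -0.29. None of the 4 counted paralogues with a signal of at least 1000 was 2-fold apart in any comparison. The paralogues past 2-fold named next have lower signals and, like Tshz3, were picked after their values were seen.

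Zic2, a zinc finger factor needed for development of the forebrain midline, read 73.2 on old p16-/-, 647 on old WT and 236 on young WT. Its log2 ratio was -3.15 for old p16-/- over old WT and 1.51 for old WT over young WT. Zic2 lies on chromosome 14, and Zic1 on chromosome 9. Zic1 and Zic2 were thus both lowest on old p16-/-, and Zic4 and Zic5 were not above background on any array.

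Tbx4, the hindlimb T-box gene that acts downstream of Pitx1, read 94.1 on old p16-/-, 100.4 on old WT and 321 on young WT, a log2 ratio of -1.62 for old WT over young WT. Brachyury (T), the founding T-box gene of the early mesoderm, was above background on young WT alone, at 234, with a bound of -2.65 for old WT over young WT. Tshz3, the relative of Tshz2, read 2410 on old p16-/-, 2702 on old WT and 2443 on young WT. It was not 2-fold apart, and its log2 ratios lay between -0.17 and 0.21.

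Partners and linked factors, 24 genes that bind the members or act beside them in the somites, were read in the same way. Of 20 counted in old p16-/- over old WT, 1 was at least 2-fold higher and 3 were lower (median 0). Pax1, a paired-box gene of the sclerotome, read 287 on old p16-/-, 2636 on old WT and 1395 on young WT. Its log2 ratio was -3.20 for old p16-/- over old WT and 0.98 for old WT over young WT. Tle1, a Groucho co-repressor recruited by homeodomain proteins, read 1876, 12163 and 11912, at -2.70 and 0.09. Further probes of Tle1 gave -1.05 and -0.86 for old p16-/- over old WT. Of the other list members past 2-fold, Gli1, a target and effector of Hedgehog signalling, was at -1.20 and Dach1, a co-repressor that works with Eya proteins, at 1.40, both under 1000 and named after their values were seen.

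Of 20 partners counted in old WT over young WT, 1 was higher (Gli1 at 1.03) and 1 was lower, Pax3 at -1.79, a paired-box gene of the dermomyotome (median 0.10). Its signal was under 1000, and it was likewise named after its value was seen. Of 18 in old p16-/- over young WT, 1 was higher (Dach1) and 3 were lower (Pax1, Pax3 and Tle1), with a median of -0.03. Eya1, the phosphatase that acts as co-activator of Six2, read 44677 on old p16-/-, 36754 on old WT and 39411 on young WT. Its log2 ratios lay between -0.04 and 0.28.

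A longer list of 65 limb, dermal and mesenchymal patterning factors had 48 counted genes in old WT over young WT and 49 in each of the other comparisons. Old WT over young WT had 3 at least 2-fold higher and 0 lower, with a median of 0.14. Old p16-/- over old WT had 4 higher and 4 lower, with a median of -0.16. Against young WT, old p16-/- had 8 higher and 7 lower, with a median of 0.05. Foxd1, a forkhead factor of stromal and dermal progenitors, followed the order of Tbx1, at 6562 on old p16-/-, 2933 on old WT and 1046 on young WT. Foxc1, a forkhead factor of mesoderm and neural crest, did so too, at 5410, 2376 and 1249. Irx1, an Iroquois homeobox gene, ran in the order of Meox2, at 1890, 6907 and 12970, with a log2 ratio of -1.87 for old p16-/- over old WT. Sall1, a zinc finger factor of limb and kidney, was higher on old p16-/- than on old WT by 1.49, and Foxf1, a forkhead factor of visceral mesoderm, read 1549 on old WT and 533 on young WT. Dlx2, Ebf1 and Twist2 were lower and Foxc2 higher in old p16-/- over young WT, at -1.38, -1.08, -1.02 and 1.14.

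The 39 Hox genes, for comparison, had 3 of 30 at least 2-fold higher and 2 lower in old p16-/- over old WT (median 0.23), and 1 of 29 higher and 0 lower in old WT over young WT (median 0.17). Against young WT, 5 of 29 were higher and 0 lower on old p16-/- (median 0.34). Of all genes, 5.91% were higher and 6.61% lower in old p16-/- over old WT, and 2.94% and 3.17% in old WT over young WT. In old p16-/- over young WT these shares were 6.34% and 6.97%. The lower pair in old p16-/- over old WT, Hoxb13 and Hoxc13, stood at -1.26 and -1.23. The higher ones, with signals under 1000 and named after their values were seen, were Hoxd4 at 4.01 (902 on old p16-/-, 55.6 on old WT), Hoxd8 at 2.91 and Hoxd9 at a bound of 1.87.

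**Figure D4:**
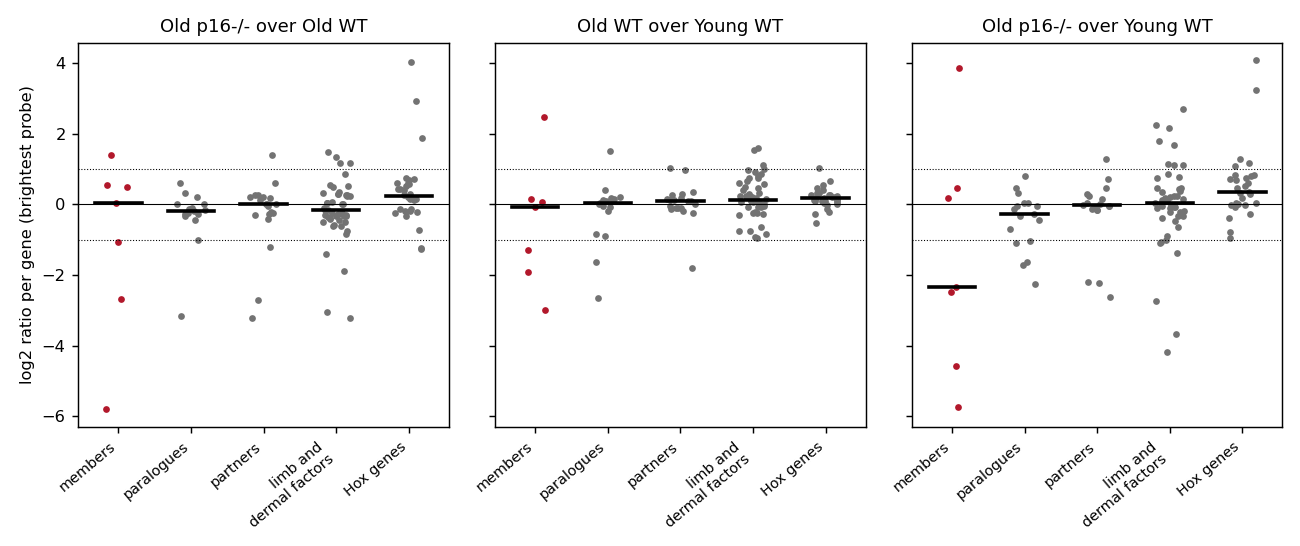
Log2 ratio per gene in the 3 comparisons for the 7 measured members (red) and for the counted genes of the paralogue, partner, limb and dermal, and Hox lists (grey). Bars are medians and dotted lines mark 2-fold. The member medians are 0.05, -0.08 and -2.34 from left to right, and the other lists have medians between -0.29 and 0.34.

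Genes beside the members on the chromosome were read as the 2 nearest genes above background on each side, 36 in all. Old p16-/- over old WT had 4 of 36 at least 2-fold higher and 2 lower (median 0.01), and in old WT over young WT 2 of 35 were higher and 2 lower (median -0.03). Against young WT, old p16-/- had 3 of 34 higher and 2 lower (median -0.002). The neighbours of Zic1 (Adamts7, Tbc1d2b, Plscr1 and Plscr2) lay between -0.62 and 0.71 in old p16-/- over old WT. Those of Tbx1 (Txnrd2, Gnb1l, Gp1bb and Septin5) lay between -0.11 and 0.26 in old WT over young WT. Gp1bb, at 0.26, was dim, with 46.6 on old WT and 40.4 on young WT. In old p16-/- over old WT the neighbours of Tbx1 lay between -0.12 and 0.60. Those of Tshz2 (Sall4, Zfp64, Zfp217 and Bcas1) lay between -0.43 and 0.32 in old WT over young WT. In old p16-/- over old WT the neighbours of Tshz2 lay between -0.37 and 0.27.

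Near Meox2, Sostdc1, a secreted antagonist of BMP and Wnt signals, was lower along with it. It read 440 on old p16-/-, 911 on old WT and 3767 on young WT, at -1.05 for old p16-/- over old WT and -1.99 for old WT over young WT. A second Sostdc1 probe gave -1.22 and -1.88. Agmo, on the other side of Meox2, was higher in old p16-/- over old WT (1.05) and lower in old WT over young WT (-1.08), the last in the direction of Meox2. Etv1 stood at 1.11 and 0.17 in the same comparisons. Beside the even genes, Wars2 next to Tbx15 stood at 1.38 in old p16-/- over old WT (0.01 by a second probe). Nt5e next to Tbx18 was at 1.29 in old p16-/- over old WT and at 1.41 in old WT over young WT. Among the neighbours of Six2, Pitx1 and Meox1, Tifab near Pitx1 was past 2-fold, by bounds of -2.47 in old p16-/- over old WT and 2.28 in old WT over young WT.

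The genes most like each member were taken as the 3 nearest, by Euclidean distance in the plane of the ratios old WT over young WT and old p16-/- over old WT, among 8692 genes above background on all 3 arrays and reaching a signal of 1000 on their brightest array. Nearest to Tbx1 were Enpp2 (distance 0.35), Itga11 (0.64) and Hapln1 (0.69). Nearest to Tshz2 were Aldh1a3 (0.50), Fcer1g (0.71) and Lrp2 (0.88), and nearest to Meox2 were Tlr13 (0.18), Csf1r (0.33) and Ccl9 (0.36). Zic1 and Six2 had no close match among these candidates. The nearest were Ifi27l2b (1.42), Ifi27l2a (1.43) and Aph1b (1.48) for Zic1, and Hivep1, Pcdh10 and Ptgis for Six2, the last at 1.30. Six2 itself stayed under 1000 on every array. Genes that dim, or not above background on an array, were not candidates, so closer matches among them were not looked for. Tbx15 and Tbx18 lay in the dense centre, with 833 and 3220 genes within 0.25 and with Bloc1s2, Ints11 and Irx3, and Rab8b, Tbc1d20 and Tulp3, nearest. Each likeness rests on 3 arrays and on the brightest probe. Another Csf1r probe above background on all 3, at 473 on old p16-/-, 394 on old WT and 450 on young WT, gave 0.26 for old p16-/- over old WT and -0.13 for old WT over young WT, unlike Meox2.

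Csf1r and Fcer1g, named as near Meox2 and Tshz2, belong to the macrophage and leukocyte marker list. Of its 20 genes, 19 were on the array and 10 were above background on old p16-/-, 18 on old WT and 18 on young WT. The summed signal was 18891 on old p16-/-, 30754 on old WT and 62209 on young WT. Itgam alone gave 14934, 19071 and 19992 of these sums and was not 2-fold apart in any comparison. Between old p16-/- and old WT, 12 of 19 were at least 2-fold lower and 3 higher, 10 of the 19 by bounds. The 3 higher were Mrc1 (2.22), Ptprc (a bound of 1.32) and Aif1 (1.31), with signals under 1000 and named after their values were seen. In old WT over young WT 16 of 18 were lower and 0 higher. Adgre1 (F4/80), a defining macrophage marker, was not above background on old p16-/- (13.1) and read 155 on old WT and 1153 on young WT. The part of such cells in the Meox2 and Tshz2 values was not tested.

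The summed signal of the cartilage and bone markers was 50790 on old p16-/-, 14410 on old WT and 7606 on young WT. Col2a1 alone gave 42067, 4376 and 2580 of these sums, and Comp, at 2183, 6288 and 2414, did not follow that order. Hapln1, named as near Tbx1, belongs to this list and read 1986 on old p16-/-, 1166 on old WT and 262 on young WT. Of the list, 3 of 10 were higher and 1 lower in old p16-/- over old WT, with 2 of 8 higher in old WT over young WT. Schwann cell and melanocyte genes had 4 of 9 higher and 1 lower in old p16-/- over old WT, and 2 of 8 higher in old WT over young WT. Smooth muscle and pericyte genes had 5 of 11 lower in old p16-/- over old WT and 0 of 11 apart in old WT over young WT. Fibroblast genes had 2 of 15 higher and 2 lower in old p16-/- over old WT. Keratinocyte (2 of 11 lower), endothelial (0 of 5 apart), skeletal muscle (2 of 5 lower) and pluripotency genes (2 of 10 higher and 2 lower) complete the lists in that comparison. The part of these cell types in the member values was not tested.

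**Figure D5:**
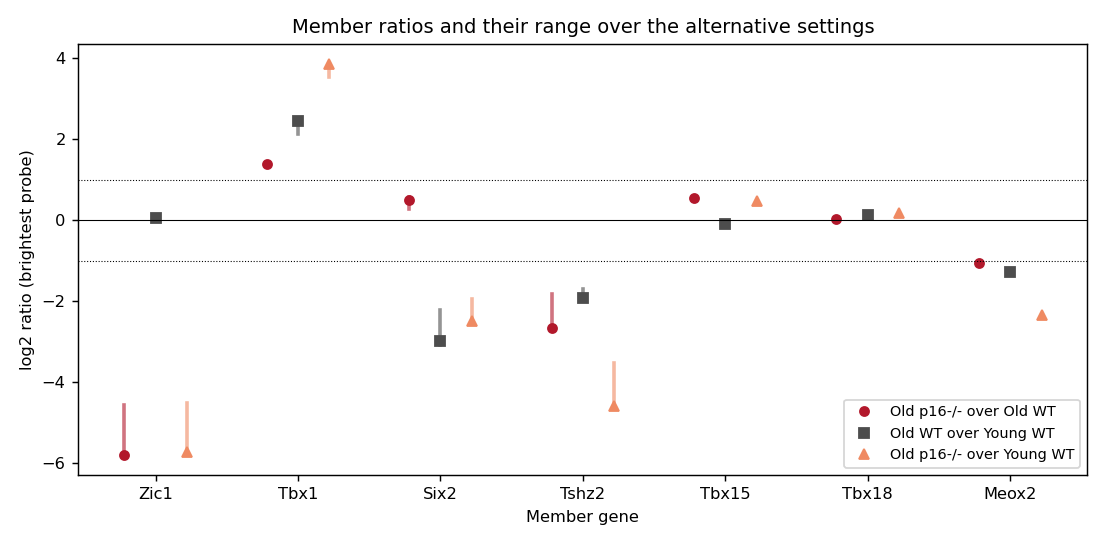
Log2 ratio of the 7 measured members by their brightest probe (symbols) and the range over up to 9 other ways of processing the arrays (bars), for old p16-/- over old WT (circles), old WT over young WT (squares) and old p16-/- over young WT (triangles). Dotted lines mark 2-fold. No bar crosses 0 or the 2-fold lines, and among the widest are those of Zic1, from -5.80 to -4.57 in old p16-/- over old WT, and of Tshz2, from -4.59 to -3.52 in old p16-/- over young WT.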

How the data were processed

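Total RNA was measured on 1-colour Agilent arrays stained with Cy3, 3 arrays on 1 slide and in 1 scan. The deposited intensity is the processed signal of Feature Extraction 11.5.1.1, background-subtracted and spatially detrended without normalization between arrays, per the file headers; the design build is mm9. The deposited series value table held the same intensity for 39030 of 39030 probes spotted once (relative tolerance 0.0001), with column medians of 132, 135 and 137 for old p16-/-, old WT and young WT.

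Control spots (1377) and outlier spots (267, 246 and 246) were left out, the spots of a probe were averaged on the log2 scale, and values were set relative to the 75th percentile of their array. No spot was saturated. Accessions matched RefSeq genes of GRCm38.p6 for 27508 of 39429 probes, and coordinates of that build are given only with its own promoter sequences. A gene stands by its brightest probe and counts in a comparison if either array had any of its probes well above background. Where 1 array was below background the ratio is a bound, set against the lowest level called on that array or the level of the probe there if higher. A difference means at least 2-fold. With 1 array per group no test was run. The error of a ratio combines the software's errors of its 2 signals. The counting was tested on simulated data.

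The members and lists were chosen with earlier results of these data known. Besides all members, the text names up to 4 genes per list, comparison and direction with a signal of at least 1000 (up to 3 for marker lists), the neighbours and the 3 nearest genes. Of the list entries, 275 of 276 were on the array. Some list members and neighbours that enter the counts are not reported here by name. Alternatives changed the scaling, the background correction, the filter, the fold and the probe. The background column for normexp was paired with the median spot signal, as the mean is not in the files used. limma 3.58.1 in R 4.3.3 made the quantile, cyclic loess and normexp alternatives, and Python 3.11.15 the rest.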

Additional observations from a re-analysis of the deposited data

How the results depend on the processing

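All 26 member probe values kept their sign under the alternatives run, and 2 crossed the 2-fold line under some setting, both of the dim second Tshz2 probe without a background filter or a bound. Under normexp the largest values shrank: Zic1 in old p16-/- over old WT was -4.57, Tshz2 -1.82 and Six2 in old WT over young WT -2.22. Of 78 member counts, 72 stayed within 1.5 times. With the second probe of a gene, or its only probe where it has 1, the number of members at least 2-fold lower was 1 in each comparison. That member was Meox2, which has a single probe. No second probe, of Zic1, Six2 or Tshz2, was at least 2-fold lower. With no background filter the number lower was 5 in old WT over young WT and 6 in old p16-/- over young WT. In old p16-/- over old WT, 2 members were then higher. The added members were Pitx1 and Meox1 among the lower and Meox1 among the higher, neither of them above background on any array. Of all genes, 1700, 2954 and 2927 were 2-fold apart in either direction in these comparisons without the filter. At 3-fold, 0 members were higher in old p16-/- over old WT (Tbx1 at 1.41).

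The count of all genes 2-fold apart, 1841 in old p16-/- over old WT, 890 in old WT over young WT and 1902 in old p16-/- over young WT, depended on the filter. In that order it was 1220, 460 and 1210 with both arrays above background, 2927, 1700 and 2954 with no filter, and 608, 151 and 675 at a signal of at least 1000. It was 3550, 1705 and 3371 at 1.5-fold and 910, 453 and 949 at 3-fold. Under normexp it was 1220 and 524 in the first pair. Of 132 list medians, 126 moved by under 0.1. The paralogue median in old p16-/- over young WT was -0.14 under normexp, -0.12 with both arrays above background, 0.000684 at a signal of at least 1000 and -0.17 by the mean of probes. The Hox median was 0.34 in old p16-/- over old WT with no filter and 0.044 in old p16-/- over young WT at a signal of at least 1000. No paired analysis was possible because each group has 1 array. Signals under 200 limit the precision of the Six2, Tshz2 and Zic1 values, and for Zic1 the choice of probe moves old p16-/- over old WT by 4.89.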
